A study of Mus musculus with 10 samples.

Results

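Mouse histone genes were followed in acid-treated tumour cells, 25 genes of the 18193 with a probe set of their own, read by 36 of the 45101 probe sets on the array. A probe set is the group of short array sequences that reads 1 transcript. The 36 are all the probe sets that the array annotation assigned to a single gene symbol of the H1, H2A, H2B, H3 or H4 naming families, found by the start of the symbol and by no measured value. Replication-dependent genes supplied 15 probe sets of 10 genes and variant genes supplied 21 probe sets of 15 genes, with H2aw counted as replication-dependent because its older symbol, Hist3h2a, places it in a histone cluster. No H4 gene had a probe set of its own. The cells were Lewis lung carcinoma (LLC), a tumour line of the C57BL/6 mouse strain, carrying stably either TDAG8, a receptor that senses protons outside the cell, or a control vector. Serum was withdrawn from both lines for 12 h, in DMEM with 0.1% BSA at pH 7.4. The cells then received this medium at pH 7.4 or at pH 6.4, for 4 h or for 12 h, and a further array of either line was made before the treatment. Every one of the 10 arrays held RNA mixed in equal amounts from 4 cultures, with 1 array for each line and condition, so there were no replicate arrays. The p-values below therefore measure only the spread between these arrays, the lines standing in for replicates of a condition.

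Histones package DNA: H2A, H2B, H3 and H4 form the nucleosome core and H1 binds the linker DNA between nucleosomes. Replication-dependent histone genes lie in clusters, are transcribed mainly in S phase, and give mRNAs that end in a stem-loop bound by SLBP rather than in a poly(A) tail. Variant histones such as H2A.Z, H2A.X and H3.3 have genes outside the clusters, are made through the cell cycle, and for the most part have polyadenylated mRNAs. The labelling here was primed with oligo-dT, which copies polyadenylated RNA, so for replication-dependent genes the signal reads mainly whatever polyadenylated transcript they gave. In bulk RNA such as this, a change in the share of cells in a phase and a change in RNA per cell cannot be told apart.

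Of the 36 probe sets, 24 passed the filter on low values, a mean normalised log2 signal of at least 3.165 (a signal of about 6.61), and were tested among 22854 probe sets. The tested members were 13 replication-dependent probe sets of 8 genes (H1f2, H1f4, H2ac19, H2aw, H2bc21, H2bc22, H3c4 and H3c7) and 11 variant probe sets of 7 genes (H1f10, H2aj, H2ax, H2az1, H2az2, H3f3a and H3f3b). The 12 below the filter never exceeded a signal of 11.5. They were 10 variant probe sets of 8 genes, H1f6, H1f7, H1f8, H2al2a, H2al3, H2ap, H2bfm and H2bl1, most of them genes known from testis or oocyte, and the replication-dependent H2bc18 and H3c11. Deposited array medians lay between 11.7 and 13.8, and the ratio of the 3' to the 5' Gapdh control probe set, a measure of RNA integrity and labelling, lay between 0.756 and 0.841. The probe set for Gpr65, the gene of TDAG8, read 0.9 to 5.3 on the 5 arrays labelled TDAG8 and 0.3 to 4.9 on the 5 control arrays. Whether that probe set lies in the part carried by the construct is not given in the sources used here, so it did not check the line labels. Of 4 mesenchymal markers 2 passed the filter, Vim (6139.9 to 9227) and Fn1 (857.8 to 2375.6), while Cdh2 and Col1a1 never exceeded 6.4. Of 5 epithelial markers 3 passed, Krt8 (1242 to 2647.9), Epcam (22.1 to 45.1) and Krt18, which read 62.3 to 194.4 in the TDAG8 and 21.6 to 42.1 in the control line, while Cdh1 and Krt19 never exceeded 8.8. None of 3 lung epithelial markers passed (summed signal 3.8 to 17.3). The 5 leukocyte markers on the array summed to 18.8 to 43.6, with Ptprc at 1.2 to 6.3, and the 4 endothelial markers to 15.7 to 33, with Pecam1 at 0.8 to 6.6.

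Promoter sequence was available for 22 of the 25 genes, and 4 are shown because their genes carried the different patterns described below. H2aw had the largest difference at 4 h and H1f2 the largest at 12 h. H2aj is a variant gene that rose at 4 h on most but not all of its probe sets. H3c4 was lower at pH 6.4 at both times on the probe set annotated to it alone. Each is the 250 bases before the annotated start, 5′ to 3′ on the strand of the gene, from RefSeq on mouse build GRCm38.p6. Capitals mark matches, on either strand, to 4 motifs. CCAAT is the CCAAT box, and ATTTGCAT is the octamer known from H2B promoters. AAACACA is an element known from H1 promoters, and TATAAA is a TATA box. In these 4 promoters no match overlaps another.
H2aw, chr11:58954435-58954684, plus strand: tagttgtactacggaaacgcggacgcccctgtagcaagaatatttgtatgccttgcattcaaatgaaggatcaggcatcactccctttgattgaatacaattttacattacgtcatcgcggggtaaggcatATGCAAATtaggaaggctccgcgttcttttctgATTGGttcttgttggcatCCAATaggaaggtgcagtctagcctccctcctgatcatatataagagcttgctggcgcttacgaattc
H1f2, chr13:23738557-23738806, plus strand: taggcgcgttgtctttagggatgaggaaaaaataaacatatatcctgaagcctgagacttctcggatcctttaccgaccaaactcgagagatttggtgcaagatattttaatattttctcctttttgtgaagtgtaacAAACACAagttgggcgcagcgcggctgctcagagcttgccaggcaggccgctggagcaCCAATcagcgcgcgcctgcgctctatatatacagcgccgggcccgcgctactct
H2aj, chr6:136807998-136808247, plus strand: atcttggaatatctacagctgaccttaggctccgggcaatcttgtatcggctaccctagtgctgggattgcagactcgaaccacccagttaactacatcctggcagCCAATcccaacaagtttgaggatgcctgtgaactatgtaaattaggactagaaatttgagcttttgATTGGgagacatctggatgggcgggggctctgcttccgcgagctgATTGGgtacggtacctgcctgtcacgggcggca
H3c4, chr13:23575513-23575762, plus strand: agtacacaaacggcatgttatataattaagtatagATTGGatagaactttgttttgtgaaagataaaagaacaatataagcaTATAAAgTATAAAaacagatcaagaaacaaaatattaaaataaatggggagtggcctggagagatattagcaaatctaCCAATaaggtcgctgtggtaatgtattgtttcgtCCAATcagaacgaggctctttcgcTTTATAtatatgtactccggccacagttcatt
In H2aw the octamer began 119 bases before the start and CCAAT boxes began 86 and 68 bases before it. In H1f2 the H1 element began 112 bases and the CCAAT box 54 bases before the start. H2aj had CCAAT at 144, 78 and 33 bases, and H3c4 had CCAAT at 215, 90 and 56 bases and TATAAA at 168, 161 and 32 bases. CCAAT was found in 18 of the 22 histone promoters and in 33.8% of the 32851 promoters of the table, and TATAAA in 6 of 22 against 12.4%. The octamer was found in 3 of 22 against 1.6% of all promoters, the H1 element in 4 of 22 against 6.25%, and TGACGTCA, the cAMP response element, in 0 of 22 against 1.55%. These matches describe the letters in the window and not binding.

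At 4 h, histone probe sets were mostly higher at pH 6.4 than at pH 7.4, and at 12 h mostly lower. The pH 6.4 arrays were compared with the pH 7.4 arrays at each time, in a limma model with line and condition as terms. Probe sets with an adjusted p under 0.05 are said to have passed. Rises and falls in these comparisons are against pH 7.4 at the same time, not against the arrays before treatment. At 4 h, 10 of the 24 members rose, 6 of 13 replication-dependent and 4 of 11 variant probe sets, against 6.51% of all probe sets tested. In the same comparison 1 member, H3f3b, fell, against 9.53% of all, and 16% of all probe sets passed in either direction. At 12 h no member rose, against 15.6% of all, and 1 member was higher at an unadjusted p under 0.05. At that time 6 members fell, 5 of 13 replication-dependent and 1 of 11 variant probe sets, against 15.5% of all, and 31.1% of all passed in either direction.

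The medians give the same order. The median log2 difference of the 13 replication-dependent probe sets was 0.89 at 4 h and -0.57 at 12 h, and that of the 11 variant probe sets was 0.29 and -0.19. The median of all 22854 probe sets was 0.03 at both times. At 4 h the difference from limma was positive for 18 of the 24 members and for 11999 of all 22854 probe sets. At 12 h it was negative for 19 of the 24 and for 10971 of all. In both lines it was positive for 17 members and negative for 4 at 4 h. At 12 h it was positive in both for 5 and negative in both for 13. These counts in both lines were not made for all probe sets, and several of the 24 read the same gene. With the values as deposited or centred on array medians the class medians kept their signs, at 0.82 and 0.77 for replication-dependent probe sets at 4 h and -0.58 and -0.45 at 12 h. Median centring lowered the share of higher differences among all calls at 4 h from 40.6% to 23.9%. Under it 8 members were higher and 2 lower, against 14.6% of all probe sets in either direction. These medians cover only members that passed the filter on low values.

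**Figure D1:**
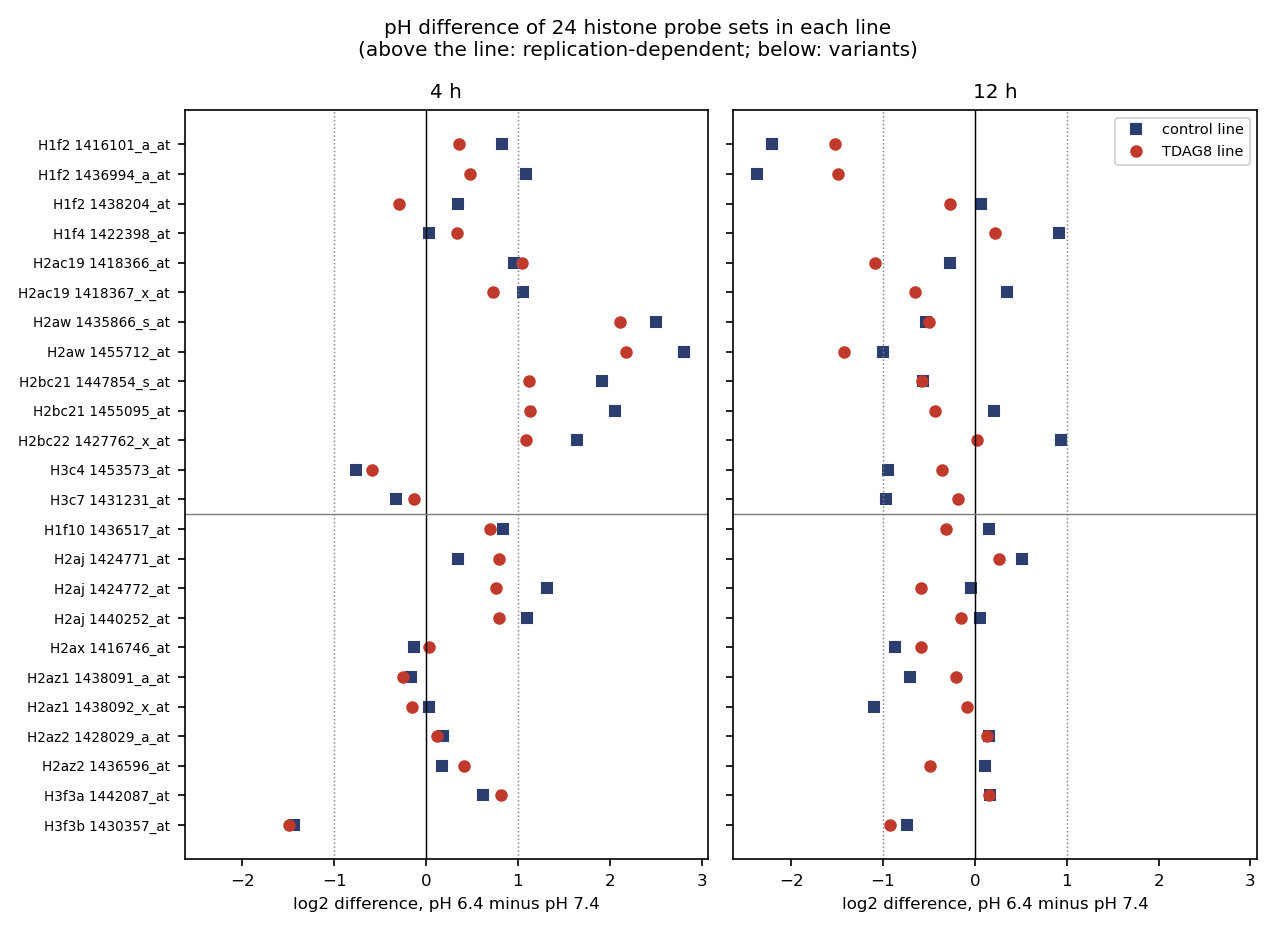
Log2 difference between the pH 6.4 and the pH 7.4 array of each line (x axis) for the 24 tested histone probe sets (y axis), at 4 h (left) and 12 h (right); each point is 1 pair of arrays, the solid line is 0 and the dotted lines are -1 and 1. The H2aw, H2bc21 and H2bc22 points lie beyond 1 in both lines at 4 h, and 2 H1f2 probe sets and 1 H2aw probe set lie beyond -1 in both lines at 12 h.

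**Figure D2:**
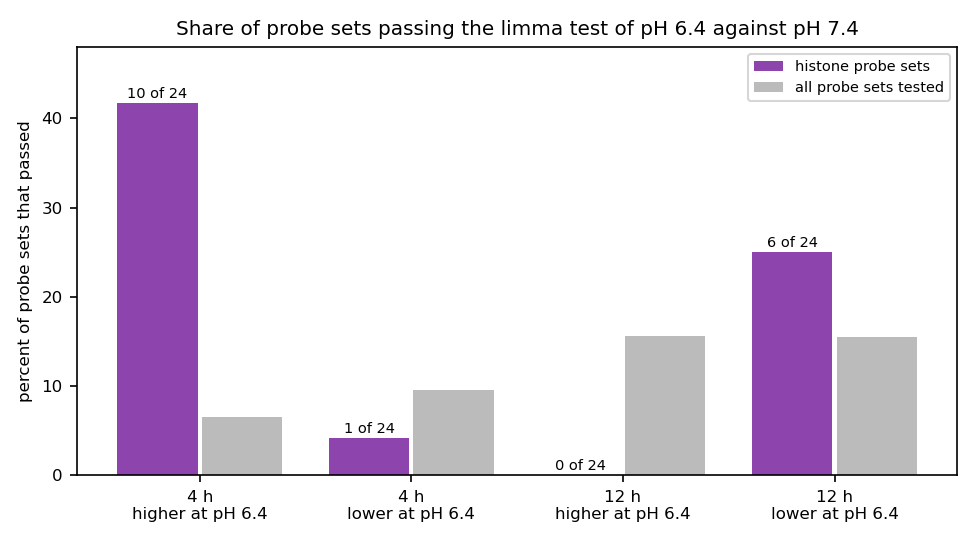
Percent of the 24 histone probe sets (purple) and of all 22854 probe sets tested (grey) that passed the limma test, by time and direction; the y axis starts at 0. At 4 h 10 of 24 histone probe sets were higher, against 6.51% of all, and at 12 h 0 of 24 were higher, against 15.6%.

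H2aw, a core histone H2A gene, had the largest difference at 4 h. In the TDAG8 line the H2aw probe set 1435866_s_at read 103.7 before treatment, 117.8 at pH 7.4 and 508.4 at pH 6.4 after 4 h, and 149 at pH 7.4 and 104.3 at pH 6.4 after 12 h. In the control line it read 85.4 before treatment, 102 and 584.5 after 4 h, and 141.5 and 92 after 12 h, in the same order. Both pH 6.4 arrays at 4 h stood above all 8 others, which lay between 85.4 and 149. The difference between pH 6.4 and pH 7.4 was 2.31 ± 0.13 (log2, SE from limma) at 4 h, a 4.96-fold rise (adjusted p = 0.00149), and -0.52 ± 0.13 at 12 h, a 1.43-fold fall (adjusted p = 0.0284).

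The second H2aw probe set, 1455712_at, gave a like result. Its signals were 24.7, 24.8, 105.4, 39.2 and 11.7 in the TDAG8 line, in the order before treatment, at pH 7.4 and pH 6.4 after 4 h, and at pH 7.4 and pH 6.4 after 12 h. The corresponding signals in the control line were 20.5, 25.2, 181.7, 36.6 and 14.6. The pH 6.4 arrays were the highest pair at 4 h and the lowest pair at 12 h, with no overlap with the other arrays in either case. The log2 difference was 2.49 ± 0.23 at 4 h (5.63-fold, adjusted p = 0.0033) and -1.21 ± 0.23 at 12 h (2.32-fold, adjusted p = 0.0115).

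H2bc21, which encodes a core histone H2B, rose on both its probe sets at 4 h. For 1447854_s_at the signals in the TDAG8 line were 110.3 before treatment, 128.1 at pH 7.4 and 264.5 at pH 6.4 after 4 h, and 199.8 and 135.7 after 12 h. The control line gave 137.4, 141.4, 529.5, 208.2 and 136.1 under the same conditions. The 2 pH 6.4 arrays at 4 h were the highest, and the pH 7.4 arrays at 12 h came next. The rise at 4 h was 1.52 ± 0.23 (2.87-fold, adjusted p = 0.0114), and the 12 h difference of -0.57 ± 0.23 did not pass (adjusted p = 0.114). The other H2bc21 probe set, 1455095_at, read 45.2, 54.4, 109.6, 72.2 and 49.4 on the TDAG8 arrays and 55.3, 49.5, 198, 58.9 and 61.3 on the control arrays, in that order of conditions. Its rise at 4 h was 1.59 ± 0.27 (3.01-fold, adjusted p = 0.0145), while at 12 h the lines had opposite signs, -0.43 on the TDAG8 arrays and 0.21 on the control arrays.

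H2bc22, a second H2B gene, had 1 probe set, 1427762_x_at, of a kind that can also read related genes. It read 29.4, 29.7, 57.8, 37.2 and 34.1 on the TDAG8 arrays and 24.6, 20, 65.1, 25.8 and 44.8 on the control arrays, in the same order. The pH 6.4 arrays at 4 h were again above all others, and H2bc22 rose by 1.37 ± 0.23 at 4 h (2.58-fold, adjusted p = 0.0151). At 12 h the difference of 0.48 ± 0.23 did not pass (adjusted p = 0.166).

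H2ac19, an H2A gene, rose at 4 h on 1 of its 2 probe sets. On 1418366_at it read 26.8, 34.5, 65.2, 104.1 and 45.2 on the TDAG8 arrays and 30.9, 33.4, 63.2, 66.2 and 48 on the control arrays. The highest values here were those at pH 7.4 after 12 h, so that the pH 6.4 arrays at 4 h did not stand apart from the rest. The difference was 1.0 ± 0.23 at 4 h (2-fold, adjusted p = 0.0343) and -0.68 ± 0.23 at 12 h (adjusted p = 0.0698). The probe set 1418367_x_at gave 0.89 ± 0.24 at 4 h, which did not pass (adjusted p = 0.0542), and -0.15 ± 0.24 at 12 h. A probe set outside the selection, 1438815_at, annotated to H2ac19 and H2ac18, read 4.2 to 24.9 and did not rise at 4 h. Its pH differences in the TDAG8 and control lines were 0 and -1.17 at 4 h and -1.45 and -0.88 at 12 h.

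**Figure D3:**
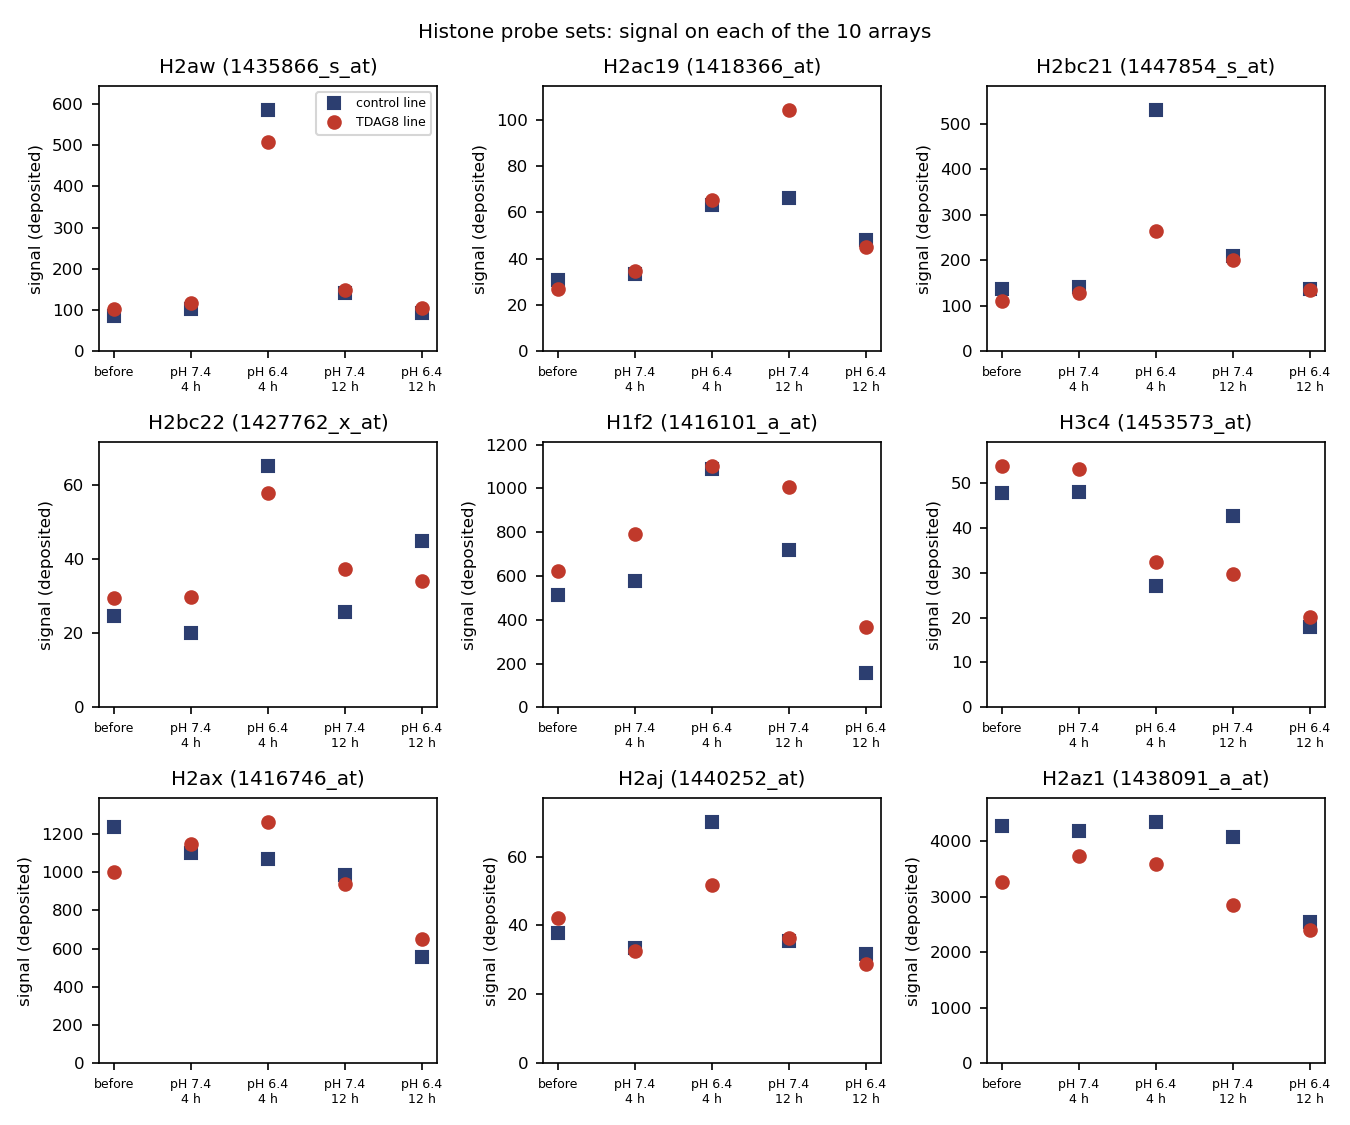
Deposited signal (y axis, from 0) of 9 histone probe sets on the 10 arrays by condition (x axis), squares for the control line and circles for the TDAG8 line; each panel is the probe set of that gene with the lowest adjusted p for pH, and each point is 1 array and has no error bar, because there was 1 array for each line and condition. The signals of H2aw probe set 1435866_s_at at pH 6.4 after 4 h, 508.4 and 584.5, stand above its other 8 arrays.

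H1f2, a replication-dependent linker histone, had the largest fall at 12 h. On 1416101_a_at it read 622.3 before treatment, 793.2 at pH 7.4 and 1101.9 at pH 6.4 after 4 h, and 1007.3 and 368 after 12 h in the TDAG8 line. The control line read 514.7, 577.7, 1089.1, 719.7 and 156. Both pH 6.4 arrays at 12 h lay below all 8 others. The difference was -1.87 ± 0.26 at 12 h, a 3.65-fold fall (adjusted p = 0.00428), and 0.59 ± 0.26 at 4 h, which did not pass (adjusted p = 0.178).

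A second H1f2 probe set, 1436994_a_at, read 429.4, 494.1, 709.6, 677.4 and 251.3 on the TDAG8 arrays and 236, 328.4, 721.2, 405.3 and 73.7 on the control arrays. The array of the TDAG8 line at pH 6.4 and 12 h was above the control line's array before treatment, so that the low pair overlapped with the rest. H1f2 fell on it by 1.93 on the log2 scale (SE 0.35, 3.81-fold, adjusted p = 0.00958). The third H1f2 probe set, 1438204_at, read 8.8 to 13.9 throughout and differed by -0.10 ± 0.19 at 12 h. H1f4, another replication-dependent linker histone, read 5.2 to 19.3 and passed in neither comparison (0.18 ± 0.20 at 4 h and 0.57 ± 0.20 at 12 h).

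H3c4, a replication-dependent H3 gene, was lower at pH 6.4 at both times on the probe set annotated to it alone. Probe sets that it shares with other H3 genes are given further below and did not all go this way. On its probe set, 1453573_at, the TDAG8 line read 53.8, 53.2, 32.5, 29.8 and 20.2 and the control line 47.8, 48.1, 27.1, 42.7 and 18, in the order used above. The pH 6.4 arrays at 12 h were the lowest, and the 4 h pair at pH 6.4 overlapped with the pH 7.4 arrays at 12 h. The difference passed at 12 h (-0.65 ± 0.19, 1.57-fold, adjusted p = 0.0425) and not at 4 h (-0.68 ± 0.19, adjusted p = 0.0582). H3c7, also an H3 gene, read 20.1 to 62.4 and passed at neither time, with differences of -0.22 ± 0.21 and -0.58 ± 0.21.

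Among the variants, H2aj, an H2A gene outside the large clusters, rose at 4 h on 2 of its 3 probe sets. On 1424772_at the TDAG8 line read 88, 68.6, 105.8, 77.5 and 47.8 and the control line 65.2, 54.1, 126.9, 57.5 and 49.3. On 1440252_at the corresponding signals were 42.1, 32.6, 51.8, 36.4 and 28.8, and 37.9, 33.6, 70, 35.5 and 31.7. On both, the pair at pH 6.4 was the highest after 4 h and the lowest after 12 h. The rises at 4 h were 1.04 ± 0.20 (adjusted p = 0.0204) and 0.95 ± 0.14 (adjusted p = 0.0113), and the differences at 12 h, -0.31 and -0.05, did not pass. The third, 1424771_at, read 349 to 881.5 and gave 0.57 ± 0.20 at 4 h (adjusted p = 0.111) and 0.39 ± 0.20 at 12 h.

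H1f10, a linker histone variant, read 86.2, 66.6, 97.8, 90.7 and 69.8 on the TDAG8 arrays and 59.1, 42.7, 72.5, 49.7 and 49 on the control arrays. Within each line the pH 6.4 array at 4 h was the highest, and H1f10 rose by 0.77 ± 0.15 at 4 h (adjusted p = 0.0205). H3f3a, which encodes the H3 variant H3.3, read 25, 22.9, 38, 23.4 and 23.6, and 29.7, 28.9, 44.4, 26.7 and 25.7, in the same order. The pH 6.4 arrays at 4 h were the highest pair, and the rise was 0.71 ± 0.11 (1.64-fold, adjusted p = 0.0123). At 12 h neither passed, at -0.08 ± 0.15 for H1f10 and 0.16 ± 0.11 for H3f3a.

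H3f3b, the second H3.3 gene, went the other way. Its probe set 1430357_at read 37.3, 28, 8, 35.4 and 15.5 on the TDAG8 arrays and 12.2, 28.7, 9.7, 25 and 12.1 on the control arrays. The 4 pH 6.4 arrays lay below the 4 pH 7.4 arrays, but the control line before treatment, at 12.2, lay among the pH 6.4 arrays. The fall passed at 4 h (-1.47 ± 0.37, 2.77-fold, adjusted p = 0.0436) and not at 12 h (-0.83 ± 0.37, adjusted p = 0.135). These signals are low, and 5 probe sets outside the selection, annotated jointly to H3f3a, H3f3b and related sequences, read 2180.4 to 4987.1 and differed by -0.33 to 0.36 between pH 6.4 and pH 7.4 in the single pairs of arrays.

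H2ax, whose product is phosphorylated at DNA breaks, fell at 12 h. The TDAG8 line read 1002.3, 1147.9, 1261.5, 938.4 and 647.9 and the control line 1237, 1099.4, 1067.4, 987 and 558.4. The 2 pH 6.4 arrays at 12 h lay below the other 8, and the difference was -0.73 ± 0.15 (1.66-fold, adjusted p = 0.0137). At 4 h it was -0.05 ± 0.15. The H2A.Z genes did not pass. H2az1 read 2402.1 to 4346.9 on 1438091_a_at, with -0.21 ± 0.14 at 4 h and -0.46 ± 0.14 at 12 h (adjusted p = 0.0531), and its other probe set, 1438092_x_at, gave -0.06 ± 0.26 and -0.59 ± 0.26. H2az2 read 1307.1 to 2081.2 on 1428029_a_at and 43 to 81 on 1436596_at, with differences between -0.19 and 0.29 at either time.

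Few arrays stood behind each call. With the 4 h arrays of the TDAG8 line left out, 0 of 24 members passed at 4 h, and without those of the control line 0 of 24 passed. In both cases no probe set of the whole table passed either. At 12 h, 3 members passed without the 12 h arrays of the TDAG8 line (2 H1f2 probe sets and H3c4), against 9.13% of all probe sets in that fit. Without those of the control line 1 passed (H1f2 1416101_a_at, at -1.52), against 5.69% of all, so neither count is far from the share of all probe sets. At pH 6.4 and 12 h the Gapdh 3' to 5' ratio was at its lowest in both lines, 0.770 and 0.756. The same ratio for beta-actin was 1.272 and 1.350 on these TDAG8 and control arrays, against 1.258 to 1.352 over all 10. The part of RNA integrity in the 12 h differences was not tested.

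Taken over both times, 2 members passed, both lower, against 5.49% of all probe sets lower and 11% in either direction. Of all calls over both times 50.1% were higher, against 39.3% with median centring and 38% as deposited. The 2 members were H3c4 (-0.66 ± 0.15, adjusted p = 0.0441) and H3f3b (-1.15 ± 0.18, adjusted p = 0.0208). The direction was not the same under every setting. With a filter at the 60th percentile 2 higher and 1 lower passed, against 20.5% of all probe sets in either direction. A trended, robust variance gave 2 higher and 3 lower, against 17.3% of all. The fit without the block gave 1 higher and 1 lower, against 15.7% of all. Leaving out the TDAG8 or the control pair of arrays, at 4 h or at 12 h, left 0 members that passed.

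Whether the pH difference at 12 h differed from that at 4 h was tested on the 8 treated arrays. The median of this change was -1.68 over the replication-dependent and -0.53 over the variant probe sets, against 0.02 over all probe sets. In limma 0 of 24 members passed, and 0% of all probe sets did. At an unadjusted p under 0.05 there were 13 members, 12 of them lower, and 5327 of all 22854 probe sets, and the lowest adjusted p of a member was 0.12. A model with line and condition as terms on all 10 arrays, chosen after seeing the data, called 9 members, all lower, against 3.87% of all probe sets lower. Those were 2 probe sets each of H1f2, H2aj, H2aw and H2bc21 and 1 of H2ac19. For H2aw 1435866_s_at this fit gave -2.83 ± 0.19 (adjusted p = 0.0154), and for H1f2 1416101_a_at -2.46 ± 0.37 (adjusted p = 0.0263).

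Counts of single pairs of arrays, with no test, show the same order in each line. A difference of 1 or more on the log2 scale in both lines was seen at 4 h in 5 members higher at pH 6.4, both probe sets of H2aw and of H2bc21 and that of H2bc22, against 1.75% of all probe sets. The other direction held H3f3b alone, against 2.89% of all. At 12 h there were 3 members lower (2 of H1f2 and 1 of H2aw) against 4.41% of all, and 0 higher against 3.05%. Relative to the array before treatment, 6 members were higher by 1 or more in both lines at pH 6.4 after 4 h, against 1.8% of all. They were those 5 and H2ac19 1418366_at. At pH 6.4 after 12 h, 1 member, H3c4, was lower than before treatment by 1 or more in both lines, against 3.35% of all. In that comparison 0 were higher, against 2.62%. The replication-dependent median against before treatment was then -0.29 in the TDAG8 and -0.03 in the control line. From 4 h to 12 h at pH 6.4, 7 members were lower by 1 or more in both lines, against 1.83% of all. They were 2 probe sets each of H1f2, H2aw and H2bc21 and 1 of H2aj.

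At pH 7.4 the histone probe sets showed no passing difference with time. Against the arrays before treatment, 0 members passed at pH 7.4 after 4 h (0% of all probe sets; 1 member and 974 of all at an unadjusted p under 0.05). Between 12 h and 4 h at pH 7.4, 0 members passed (0% of all; 6 members and 2012 of all at an unadjusted p under 0.05). H2ac19 1418366_at had the largest of these differences, 1.20 ± 0.23 (adjusted p = 0.423), and H1f4 had the lowest, -0.86 ± 0.20 (adjusted p = 0.444). The median difference between 12 h and 4 h at pH 7.4 was 0.35 over the replication-dependent probe sets, positive for 9 of 13. Over the variant probe sets it was -0.09, and over all -0.002. The pH differences at 12 h are measured against these pH 7.4 arrays.

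The study was designed to find genes regulated by TDAG8, which makes the 2 lines a comparison of its own. Between the lines under matched conditions 0 members passed (0.293% of all probe sets; 6 members and 4166 of all at an unadjusted p under 0.05). The lowest adjusted p was that of H1f10, 0.53 ± 0.09 higher in the TDAG8 line (adjusted p = 0.0887), and its signal was higher in that line under all 5 conditions. Whether the pH difference depended on the line was tested on the 8 treated arrays, and 0 members passed (0% of all; 0 members and 639 of all at an unadjusted p under 0.05). The pH difference was lower in the TDAG8 than in the control line for 16 of 24 members at 4 h and for 16 of 24 at 12 h. Over both times it was lower for 15 of 24 members and for 11132 of all 22854 probe sets. Several of the 24 read the same gene, so these counts are not of independent genes. At pH 6.4 and 12 h, H1f2 was higher in the TDAG8 line by 1.19 on 1416101_a_at and by 1.64 on 1436994_a_at. These were the 2 members higher by 1 or more, against 3.51% of all probe sets, with 1 array a line and no test. Both were also higher in that line without acid, by 0.27 and 0.84 before treatment. At pH 7.4 they were higher by 0.50 and 0.595 after 4 h and by 0.51 and 0.76 after 12 h. At pH 6.4 after 4 h the values were 0.03 and -0.02. For H2bc21 the rise at 4 h was 1.12 and 1.13 on the TDAG8 arrays and 1.92 and 2.05 on the control arrays.

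Probe sets annotated to several histone genes fell outside the selection, and 18 of 24 such probe sets lay above the filter. At 4 h, 3 of the 18 were higher by 1 or more in both lines, against 1.75% of all probe sets tested. In the other direction there were 0, against 2.89%. At 12 h 0 of the 18 were higher, against 3.05%, and 1 was lower, against 4.41%. The count at 12 h lies near the share of all. A further 3 paired 1 histone gene with another gene, and of these 1435865_at, annotated to H2aw and Trim17, was higher at 4 h by 1.55 in the TDAG8 and 2.0 in the control line. A probe set shared by the H2B genes H2bc4, H2bc6 and H2bc8, 1418072_at, went from 241.2 at pH 7.4 to 734.2 at pH 6.4 after 4 h in the TDAG8 line and from 210.5 to 819.4 in the control line. After 12 h it read 409.1 and 592.6, and 334.4 and 454.6, so that it stayed higher at pH 6.4 in these pairs. A probe set shared by 10 H2A genes, 1438009_at, read 4017.8 to 6215.4 and differed between pH 6.4 and pH 7.4 by -0.12 to -0.06. Some H3 probe sets were shared by H3c4, H3c7 and other H3 genes. In the TDAG8 and control lines 1442051_at differed by 1.07 and 2.44 at 4 h and by -1.35 and -0.04 at 12 h. For 1422155_at these values were 0.34 and 0.65, and -1.9 and -1.28. For 1460314_s_at they were 0.17 and 0.69, and 0.19 and 0.05, and for 1427864_at 0.38 and -0.31, and -0.26 and -0.05. For H4, the probe set 1422948_s_at, shared by 13 symbols, read 89.1 to 179.9, with pH differences of 0.08 and 0.44 at 4 h and 0.29 and 0.90 at 12 h in the TDAG8 and control lines. Members of a histone family are near-identical in sequence, so a probe set named for 1 gene may read others as well.

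The genes that act on histone mRNA and on histones were read from lists, each gene by the probe set of its highest average signal. Their counts stand against the 16% of all probe sets that passed at 4 h and the 31.1% at 12 h. With 1 probe set per gene these shares were 17.6% and 34.5%, and with a filter at the 60th percentile 28.6% and 46.1%. At 12 h the counts for transcription, chaperones and mitosis, 2 of 7, 5 of 18 and 4 of 17, lie near the share of all. At 4 h the counts given below for 3' end processing, chaperones, replication and mitosis do not exceed it. Of 7 genes for histone gene transcription, 1 rose at 4 h, Hinfp, an activator of H4 genes (0.58 ± 0.13, adjusted p = 0.0299), and 1 fell, Yy1 (-0.54 ± 0.12). At 12 h 2 rose, Cdk2 (0.60 ± 0.10) and Ccne1 (0.58 ± 0.11), the cyclin E kinase pair, and 0 fell. Of 16 genes for 3' end processing and turnover of histone mRNA, 0 rose and 1 fell at 4 h, Tut7, which adds uridines to histone mRNA (-0.46 ± 0.12). At 12 h 3 of them rose and 5 fell. Those that rose were Lsm11, a part of the U7 particle (1.04 ± 0.24), Upf1, a helicase of mRNA decay (0.61 ± 0.12), and Slbp, the stem-loop binding protein (0.40 ± 0.10, adjusted p = 0.0283). Those that fell were Ncbp2 (-1.06 ± 0.15) and Ncbp1 (-0.37 ± 0.11), which bind the cap, Srrt (-0.95 ± 0.17), Lsm10 (-0.53 ± 0.16) and Tut7 (-0.43 ± 0.12).

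Among 18 histone chaperones and deposition factors, Dnajc9 rose (0.55 ± 0.13) and Atrx fell (-0.53 ± 0.13) at 4 h. At 12 h 3 rose, Dnajc9, an H3-H4 co-chaperone (0.90 ± 0.13), Srcap, which deposits H2A.Z (0.67 ± 0.13), and Nap1l4 (0.54 ± 0.14). In that comparison Hira and Atrx, which both deposit H3.3, fell by 1.61 (SE 0.31) and 1.27 (SE 0.13) on the log2 scale. Hira read 78.2, 68.8, 39, 58.6 and 11.5 on the TDAG8 arrays and 68.5, 75.1, 34.2, 73 and 26.4 on the control arrays, the 4 pH 6.4 arrays being the lowest. Of 3 histone variants whose symbols follow another pattern, 0 passed at 4 h. At 12 h Macroh2a2 rose (0.97 ± 0.20) and Macroh2a1 (-0.49 ± 0.11) and the centromeric H3 Cenpa (-0.44 ± 0.13) fell.

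Of 27 genes of DNA replication, 4 rose and 0 fell at 4 h, with a median of 0.17, and 14 rose and 0 fell at 12 h, with a median of 0.45. With arrays centred on their medians, 1 rose at 4 h and 16 at 12 h. Cdc6, which loads the replicative helicase, read 233, 200.4, 368.7, 141.1 and 324.9 on the TDAG8 arrays and 283.6, 246.8, 401.9, 160.8 and 407.4 on the control arrays. The 4 pH 6.4 arrays were the highest, with rises of 0.85 ± 0.11 at 4 h and 1.26 ± 0.11 at 12 h (adjusted p = 0.00645 and 0.0012). Cdc45, Fen1 and Rfc3 rose at 12 h by 1.07 ± 0.24, 1.06 ± 0.13 and 1.01 ± 0.14. At 12 h the pH difference from limma was positive for 23 of the 27 replication genes and negative for 19 of the 24 histone probe sets. Of the 24, 13 were negative in both lines, and several of the 24 read the same gene. Among all 22854 probe sets the difference was positive for 11882 and negative for 10971. Between 12 h and 4 h at pH 7.4 all 27 replication genes had a negative difference, with a median of -0.42, and none passed. Of all probe sets 11506 had a negative difference there.

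Of 17 genes of G2 and mitosis, 0 rose and 2 fell at 4 h, and 1 rose and 3 fell at 12 h. Cenpe, a mitotic kinesin, fell at both times (-1.39 ± 0.24 and -1.19 ± 0.24). Aurkb, a mitotic kinase, rose at 12 h (0.95 ± 0.10), and Ccnb2 (-0.74 ± 0.15) and Birc5 (-0.60 ± 0.11) fell. Cdkn1a, a CDK inhibitor, rose at both times (1.27 ± 0.18 and 1.41 ± 0.18), and the other 3 of the 4 CDK inhibitor genes tested passed at neither. The part of cell cycle differences in the histone signals was not tested.

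**Figure D4:**
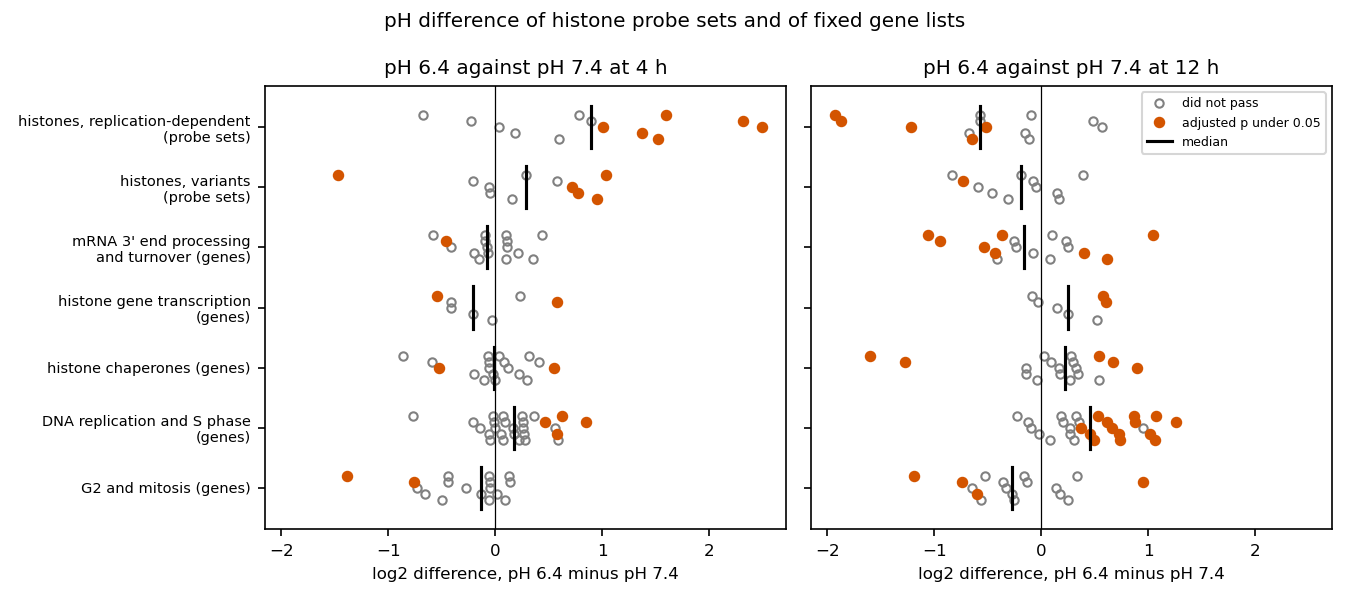
Log2 difference between pH 6.4 and pH 7.4 from limma (x axis) for the replication-dependent and variant histone probe sets and for the genes of 5 lists (y axis), at 4 h (left) and 12 h (right); filled points passed at an adjusted p under 0.05, open points did not, and black bars are medians. The median of the replication-dependent probe sets was 0.89 at 4 h and -0.57 at 12 h, and that of the DNA replication list was 0.17 and 0.45.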

How the data were processed

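Gene expression was measured on 10 Affymetrix Mouse430 2.0 arrays. The deposited values are linear signal intensity per probe set, and the authors' summary software is not given in the sources used here. Their trimmed mean of 100.001 on every array shows scaling to a common target, and medians differed by up to 0.238 (log2) between arrays. The values were quantile normalised and transformed as log2(signal + 2.36), 2.36 being the 20th percentile, so fold changes of low signals are understated. Probe sets with 1 gene symbol (34945) whose mean reached the 40th percentile were tested with limma 3.58.1 in R 4.3.3, with Benjamini-Hochberg adjustment over all 22854 of them. The pH tests at 4 and 12 h, the medium test and the time test used line and condition on all 10 arrays. The other tests used matched pairs as blocks. The code was tested on simulated data. Members that passed in any of 8 comparisons, or differed by 1 or more (log2) alike in both lines, were given by array, with H2ax, H2az1, H2az2, H2aj, H3f3a and H3f3b named whatever their values; H1f0 is not analysed here. The members and lists were chosen with earlier results of these data known. Precision is limited by how few arrays there were. Alternatives covered scaling, pseudocount, filter, variance model, 1 probe set per gene and left-out pairs.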

Additional observations from a re-analysis of the deposited data

Results flagged for a closer look

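For 6 probe sets the pH difference had 1 sign in both lines at 4 h and the other in both lines at 12 h. It was at least 0.25 on the log2 scale in each pair. They read H1f2, H2aw, H2bc21 and H2ac19, some of them the same gene. How many of all probe sets meet this rule was not counted, so the 6 are not set against a share. The values below are the difference at 12 h minus that at 4 h (log2). None passed the limma test on the 8 treated arrays. All 6 passed in the model added after seeing the data, which called 7.69% of all probe sets. The 6 were picked for this change of sign on the same arrays, so their passing in that model is no further support for it. For H2aw 1455712_at the change was -3.71 (adjusted p = 0.12), from 2.18 and 2.81 at 4 h in the TDAG8 and control lines to -1.43 and -1.0 at 12 h. The H2aw probe set 1435866_s_at changed by -2.83 (adjusted p = 0.12), from 2.11 and 2.51 to -0.50 and -0.53. H1f2 1436994_a_at gave -2.71 (adjusted p = 0.12), from 0.47 and 1.09 to -1.49 and -2.37. H1f2 1416101_a_at gave -2.46 (adjusted p = 0.12), from 0.36 and 0.83 to -1.52 and -2.21. H2bc21 1447854_s_at gave -2.09 (adjusted p = 0.12), from 1.12 and 1.92 to -0.57 in both lines. H2ac19 1418366_at gave -1.68 (adjusted p = 0.123), from 1.05 and 0.95 to -1.08 and -0.27.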

How the results depend on the processing

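The limma results were recomputed under the alternatives that could give a value; a probe set that a stricter filter or 1 probe set per gene removed has none, and the settings without a block or with the arrays of 1 time were run only for the results they concern. The members that passed kept their direction in all 204 recomputed values; 138 of these still passed and 66 did not. The number of members that passed over both times, 2 as reported, was 0 without the filter (1.76% of all probe sets passed) and 5 with a trended, robust variance (17.3%), and 0 to 0 with a pair left out. At 4 h the 11 members became 7 of 36 without the filter (4.86% of all), 6 of 15 with 1 probe set per gene (17.6%), 0 with only the 4 arrays of that time, and 0 to 0 with the arrays of 1 line left out. At 12 h the 6 became 2 with only the 4 arrays of that time (5.97%) and 1 to 3 with the arrays of 1 line left out (5.69% to 9.13%). For pH by time the 0 became 8 of 21 under a stricter filter (60th percentile; 9.86% of all), 9 under a trended, robust variance (11.6%) and 9 in the model of line and condition added after seeing the data (7.69%). Between the lines the 0 became 1 under the stricter filter (3.37%) and 1 with a trended, robust variance (4.65%). Centring on the array medians gave 8 members higher and 2 lower at 4 h, against 14.6% of all probe sets in either direction. At 12 h it gave 4 lower, against 28.7% of all in either direction. Values as deposited gave 9 lower at 12 h, against 30.9% of all in either direction. Median centring moved the median of all probe sets for pH by time to 0.165. The labels carry no replicate numbers, so arrays were matched by line and condition only. Without that block 2 members passed over both times (15.7% of all) and 0 between the lines (0.0525%). Signal over background limits the 12 members below the filter and H1f4, H3f3b and H1f2 1438204_at.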
